A study of Mus musculus with 42 samples.

Results

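The collagen genes of the mouse were followed across 3 states of muscle precursors. Every gene of the RNA-seq count tables whose symbol is Col, a number, the letter a and a number was taken, which gave 44 of 24466 genes. They were grouped by the structure of the protein: 11 fibrillar, 8 basement membrane, 9 FACIT, 4 transmembrane and 6 microfibrillar collagens, and 6 others. iPax7 cells are a mouse embryonic stem cell line in which doxycycline (Dox) drives a Pax7 transgene; precursors were sorted from day 5 embryoid bodies as PDGFαR+Flk-1- cells and grown with Dox at 0.75 µg/ml (+Dox, 3 libraries). The same cells were collected 3 days after Dox was removed (-Dox, 2 libraries). Satellite cells, the resident stem cells of skeletal muscle, were isolated from mice with a Pax7-ZsGreen reporter and were not cultured according to their label (3 libraries). iPax7 is a single line with forced Pax7, and the labels do not say whether the libraries of a group came from separate cultures or animals, so p-values measure only the spread between these libraries. Peak lists from the same study (ATAC-seq for open chromatin, ChIP-seq for 4 histone marks and for Pax7) were read at the same genes.

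Collagens are trimeric proteins of the extracellular matrix. Fibrillar collagens (types I, II, III, V, XI and others) build the tension-bearing fibrils of tendon, skin and interstitium; FACIT collagens sit on fibril surfaces; type IV collagen forms the network of basement membranes, with types XV and XVIII attached to it; type VI makes beaded microfibrils next to the muscle basement membrane; transmembrane collagens are anchored in the cell membrane. In muscle, fibroblasts make most of the interstitial fibrils, and type VI collagen is a component of the satellite cell niche.

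Pax7, the gene that Dox controls, checked the labels. Its normalized count (the count corrected for TMM-scaled library size) was 12759, 14130 and 11610 in +Dox, 221 and 270 in -Dox, and 8504, 3926 and 5456 in satellite cells. Counts on genes ran from 39010958 to 54674619 per library. Reads that aligned to several places made up 7.11% to 7.60% of all reads in the iPax7 libraries and 23.6% to 30.7% in satellite cells. Of the 44 collagen genes, 40 passed the filter on low counts and were tested; Col6a5, Col9a1, Col9a2 and Col28a1 were not, and Col9a1 had no count in any library.

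Collagen genes took a small share of the RNA in both iPax7 states and a larger one in satellite cells. The share of counts on genes was 0.0938%, 0.0871% and 0.0610% in +Dox (mean 0.0806% ± 0.0173, SD, n = 3). It was 0.0888% and 0.105% in -Dox (mean 0.0968% ± 0.0113, SD, n = 2). It was 0.359%, 0.329% and 0.156% in satellite cells (mean 0.281% ± 0.110, SD, n = 3). All satellite libraries were above all iPax7 libraries.

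**Figure D1:**
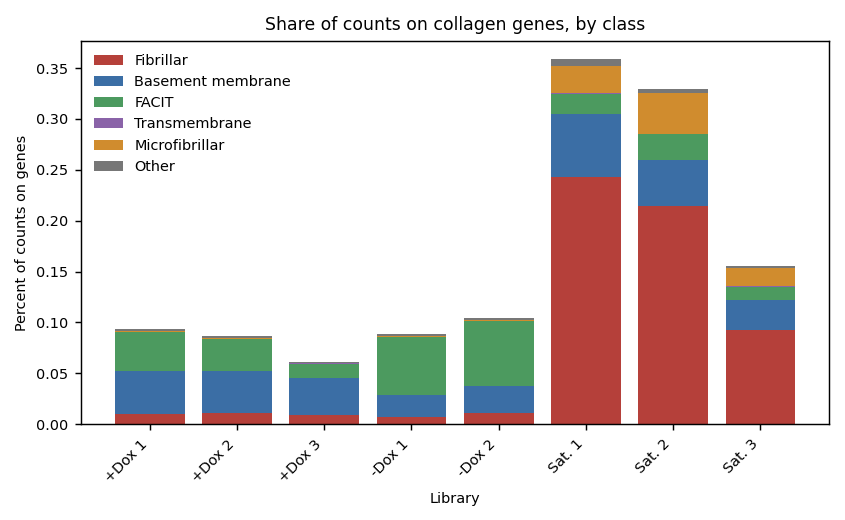
Percent of counts on genes that fell on collagen genes in each of the 8 libraries, stacked by class, with no error bars because each bar is 1 library. Fibrillar collagens make up most of the satellite bars, while FACIT and basement membrane collagens make up most of the iPax7 bars.

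The classes that carried this share differed. Levels of genes were compared per length, as counts per kilobase of merged exon scaled to 1e+06 counts on genes. On this scale basement membrane collagens made 53.3% ± 8.57 (SD, n = 3) of the summed collagen level in +Dox and 25.4% ± 0.941 (SD, n = 2) in -Dox. In satellite cells they made 17.8% ± 3.00 (SD, n = 3). Their own summed level was 57.9 ± 4.55 in +Dox, 35.1 ± 5.16 in -Dox and 67.2 ± 24.4 in satellite cells. FACIT collagens made 31.9% ± 9.46 in +Dox, 62.8% ± 2.62 in -Dox and 7.24% ± 1.575 in satellite cells. Fibrillar collagens made 10.4% ± 1.54 in +Dox, 7.32% ± 1.70 in -Dox and 56.8% ± 5.06 in satellite cells. Microfibrillar collagens made 0.284% ± 0.268 in +Dox, 1.29% ± 0.776 in -Dox and 15.8% ± 3.87 in satellite cells. Transmembrane collagens stayed below 1% of the collagen level in the mean of each group. These shares and levels are given as descriptions, with no test.

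**Figure D2:**
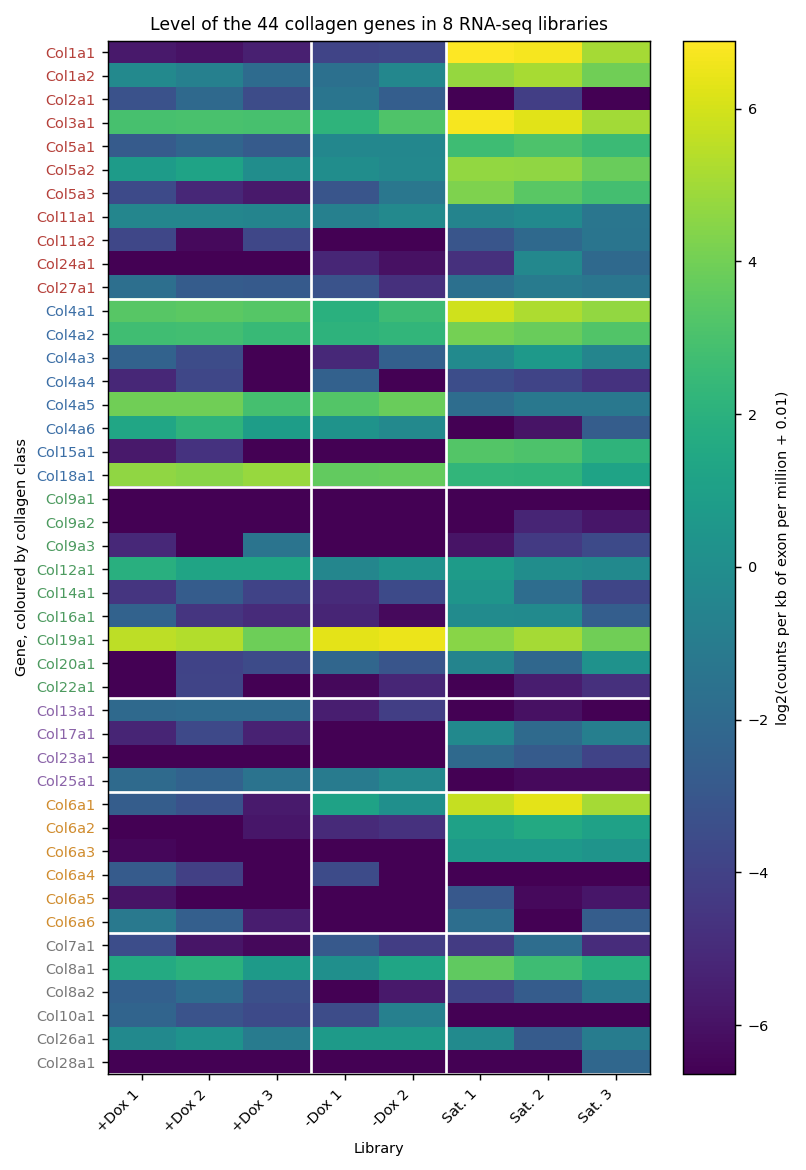
Level of each collagen gene (rows, coloured by class) in each library (columns), as log2 of counts per kilobase of exon, scaled to 1e+06 counts on genes, plus 0.01. Col1a1, Col1a2, Col3a1, Col5a1, Col5a2, Col5a3, Col6a1, Col6a2 and Col6a3 are brighter in the 3 satellite columns than in the iPax7 columns; Col2a1 and Col6a4 are not. Col19a1 is the brightest row in 4 of the 5 iPax7 columns and Col18a1 in +Dox library 3.

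Few genes made up the level in each state. Col19a1, a FACIT collagen, made 29.0% ± 9.82 of the collagen level per kilobase in +Dox and 61.9% ± 2.74 in -Dox. Col18a1, the precursor of endostatin, made 23.7% ± 8.24 in +Dox and 9.26% ± 0.639 in -Dox. In satellite cells Col1a1 made 20.9% ± 4.54, Col3a1 17.7% ± 3.28 and Col6a1 14.6% ± 3.67, and Col19a1 made 6.38% ± 1.64. A mean level of at least 1 per kilobase was reached by 10 of 44 genes in +Dox, 10 in -Dox and 17 in satellite cells.

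Removal of Dox changed few collagen genes. A gene was called when the adjusted p (edgeR quasi-likelihood test, Benjamini-Hochberg over all 14836 genes tested) was under 0.05 and the change at least 2-fold. In -Dox against +Dox, 4 of the 40 tested members were higher, 3 of them fibrillar (Col1a1, Col5a1 and Col5a3) and 1 microfibrillar (Col6a1). Over all genes tested, 4.63% were called higher and 3.01% lower. No member was called lower in this edgeR fit of all 8 libraries. At an unadjusted p under 0.05 with at least a 2-fold change, 7 were higher and 6 lower. DESeq2 called 5 lower and an edgeR fit on these groups only called 1. A fit with a replicate block, which left out +Dox library 3, called 3. The median log2 fold change of the 40 tested members was -0.15, and -0.12 when genes with no count in a group were set to the bound that 3 counts per library give; over all genes it was -0.00. The count of 4 became 2 without +Dox library 2 and 2 without -Dox library 2. Myofiber markers moved in the same comparison: all 12 were higher in -Dox, and their summed normalized count was 6927 to 10252 in +Dox, 1789962 to 1861908 in -Dox and 7021 to 13948 in satellite cells, with Acta1 (skeletal actin) as the largest in -Dox. The part of this shift in the collagen changes was not tested.

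The largest of these changes was that of Col6a1, which encodes a chain of the type VI microfibrils (chr10:76171537-76188913 on mm9, minus strand). Its normalized counts were 25.5, 17.0 and 1.82 in +Dox and 479 and 223 in -Dox, with no overlap. The log2 fold change was 4.53 ± 0.72 (SE, edgeR adjusted p = 0.00485). It stayed called in each of 14 alternative settings. Col6a2, the chain that joins Col6a1 and Col6a3 in the trimer, had 0, 0 and 2.73 normalized counts in +Dox and 8.27 and 11.1 in -Dox (adjusted p = 0.0763, not called). Col6a3 had at most 0.751 normalized counts in any iPax7 library.

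Col5a1 (chr2:27741945-27895034, plus strand), a chain of the type V collagen that initiates and limits fibrils, rose as well. Its normalized counts were 45.8, 71.1 and 51.9 in +Dox and 311 and 309 in -Dox. The log2 fold change was 2.46 ± 0.34 (SE, edgeR adjusted p = 0.00239), and the call was kept in all 14 alternative settings. Col5a3 (chr9:20574494-20619511, minus strand), another type V chain, had 19.5, 5.18 and 2.73 in +Dox and 35.8 and 129 in -Dox. Its log2 fold change was 3.13 ± 0.78 (edgeR adjusted p = 0.0405), and it was 4.32 without +Dox library 1 and 1.95 without -Dox library 2 (adjusted p = 0.34). Col5a2, the remaining chain, had 639, 887 and 416 in +Dox and 450 and 354 in -Dox (log2 fold change -0.69 ± 0.38, edgeR adjusted p = 0.339).

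Col1a1 (chr11:94797538-94814356, plus strand), the main chain of type I collagen, was close to absent in both iPax7 states. Its normalized counts were 2.25, 1.48 and 3.64 in +Dox and 18.4 and 19.4 in -Dox. The log2 fold change was 2.91 ± 0.65 (edgeR adjusted p = 0.0256). Col1a2, its partner chain, was far above it: 388, 286 and 134 in +Dox and 182 and 427 in -Dox. Per kilobase of exon, Col1a2 averaged 0.548 and Col1a1 0.00898 in +Dox, and the 2 chains averaged 25.6 and 85.4 in satellite cells. The calls of Col1a1 and Col5a3 were each lost in 7 of 14 alternatives, with adjusted p up to 0.41 and 0.34.

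A pair of abundant members did not pass the test. Col19a1 (chr1:24268729-24594311, minus strand) had 12764, 11003 and 4508 normalized counts in +Dox and 27145 and 29008 in -Dox. Both -Dox libraries lay above all +Dox libraries, and +Dox library 3 was the lowest. The log2 fold change was 1.57 ± 0.43 (SE, edgeR adjusted p = 0.0599); 5 of 14 alternatives called it. Col12a1, a FACIT collagen, had 2217, 1471 and 1574 in +Dox and 543 and 863 in -Dox (log2 fold change -1.32 ± 0.42, edgeR adjusted p = 0.096), and 3 of 14 alternatives called it.

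The basement membrane genes were not called in this comparison. Col4a1 had 2815, 3035 and 3000 normalized counts in +Dox and 1275 and 1997 in -Dox (adjusted p = 0.19 by edgeR). Col4a2, which shares a divergent promoter with Col4a1 and forms trimers with it, had 1769, 1873 and 1633, then 1367 and 1504. Col4a5 had 4031, 4262 and 2182, then 3116 and 4322. Col18a1 had 7005, 6303 and 8534, then 4209 and 4343 (log2 fold change -0.77 ± 0.33, edgeR adjusted p = 0.215). Col15a1, a relative of Col18a1, had 2.25, 7.41 and 0 in +Dox and no count in -Dox. Among the fibrillar and other genes, Col3a1 had 2573, 2724 and 2851, then 1836 and 3539, and Col8a1 had 624, 820 and 364, then 265 and 602.

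**Figure D3:**
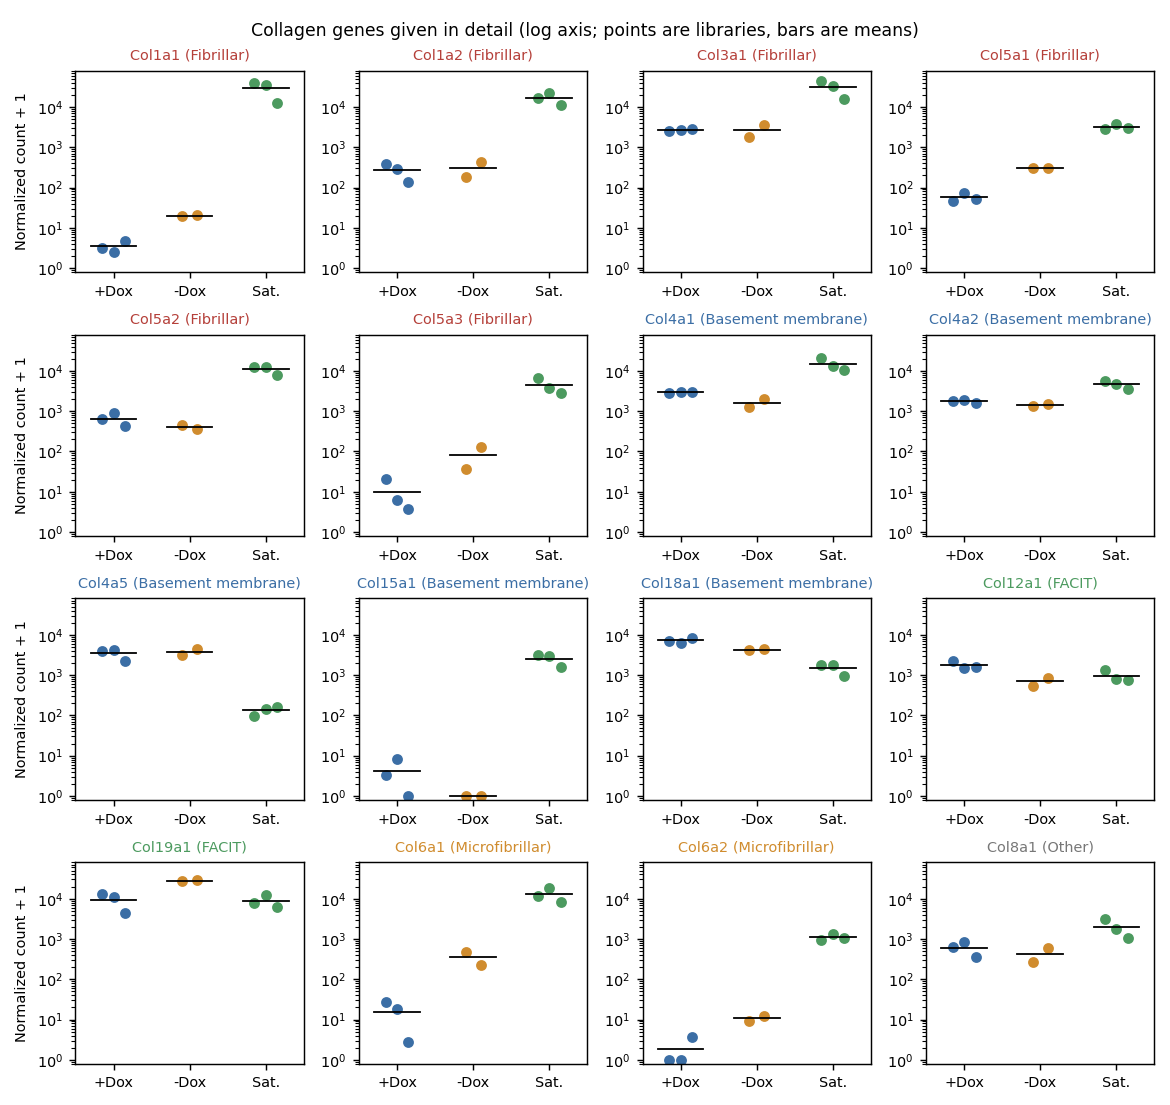
Normalized count plus 1 (log axis) of the 16 collagen genes that were called in -Dox against +Dox or reached a mean of 1000 in a group; each point is a library and each bar a group mean. Col1a1, Col5a1, Col5a3 and Col6a1 rise from +Dox to -Dox and again to satellite cells, Col19a1 is highest in -Dox, and Col4a5 and Col18a1 are lowest in satellite cells.

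Satellite cells differed from +Dox cells in most of the genes. Of the 40 tested members, 19 were higher and 6 lower in satellite cells, against 23.9% of all genes tested higher and 18.2% lower. Of the 11 fibrillar genes, 7 were higher, and Col2a1, the cartilage collagen, was the one with a fitted change below 0 (log2 fold change -2.75 ± 1.72, edgeR adjusted p = 0.218). Of the 6 microfibrillar genes, 3 were higher (Col6a1, Col6a2 and Col6a3). The 8 basement membrane genes split, with 4 higher and 3 lower, as did the 4 transmembrane genes, with 2 higher (Col17a1 and Col23a1) and 2 lower (Col13a1 and Col25a1). Of the 9 FACIT genes, 2 were higher, Col16a1 and Col20a1. The median log2 fold change of the 40 was 2.02, with bounds in place or not, and that of all genes 0.17.

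The interstitial collagens of types I, III and V were higher in satellite cells. Col1a1, with the largest log2 fold change of the 40 tested members, had 39901, 36016 and 12711 normalized counts in satellite cells, against at most 3.64 in +Dox (log2 fold change 13.52 ± 0.68, edgeR adjusted p = 3.62e-06). Col1a2 had 16839, 21829 and 11068 (5.94 ± 0.55, adjusted p = 6.09e-05). Col3a1 had 45298, 33835 and 15593 (3.54 ± 0.42, adjusted p = 0.000222). Each of the 3 genes was lowest in satellite library 3, and no satellite library overlapped with +Dox. Col5a2 had 12542, 12570 and 7734, Col5a1 2780, 3854 and 2942, and Col5a3 6701, 3781 and 2867 in the satellite libraries. Their log2 fold changes against +Dox were 4.08 ± 0.37, 5.82 ± 0.37 and 8.88 ± 0.90.

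Of the 6 type VI genes, Col6a1, Col6a2 and Col6a3 were near absent in +Dox and abundant in satellite cells. Col6a1 had 11670, 18600 and 8519 normalized counts there (log2 fold change 9.73 ± 0.84, edgeR adjusted p = 4.16e-05). Col6a2 had 927, 1315 and 1043, with 3 counts in all of +Dox, so no fold is given. Col6a3, with 1 count in +Dox, had 986, 976 and 872. The other type VI genes did not pass this test. Col6a4 had 46.6, 17.0 and 0 in +Dox and no count in satellite cells (edgeR adjusted p = 0.0952), Col6a6 had 128, 48.9 and 3.64, then 109, 0 and 63.3 (adjusted p = 0.981), and Col6a5, which was not tested, had 2.25, 0 and 0, then 59.2, 1.34 and 3.96. Col24a1 and Col23a1 had no count in +Dox, and their satellite means were at least 51.9-fold and 15.8-fold above the floor of 3 counts per library.

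The basement membrane class held both directions. Col4a1 had 20874, 13305 and 10308 normalized counts in satellite cells (log2 fold change 2.33 ± 0.32, edgeR adjusted p = 0.000426). Col4a2 had 5734, 4756 and 3525 (1.41 ± 0.26, adjusted p = 0.00241). Col15a1 had 3127, 2903 and 1604 (9.52 ± 0.93, adjusted p = 0.000124). Col4a5 fell to 96.1, 146 and 161 (-4.70 ± 0.40, adjusted p = 3.85e-05), and Col4a6, which shares its promoter region with Col4a5 on chromosome X, to 0, 2.68 and 69.9 (-5.30 ± 1.35, adjusted p = 0.0111). Col18a1 fell to 1744, 1737 and 939 (-2.30 ± 0.30, adjusted p = 0.000356). Col19a1 had 7809, 12296 and 6145, inside the +Dox range (-0.11 ± 0.39, adjusted p = 0.849), and Col12a1 had 1353, 799 and 760. Col8a1 had 3171, 1745 and 1047 (1.72 ± 0.52, adjusted p = 0.0237), a call lost without +Dox library 1, +Dox library 3 or satellite library 1 (log2 fold change 1.70, 1.46 and 1.22, adjusted p = 0.0651, 0.0736 and 0.082).

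**Figure D4:**
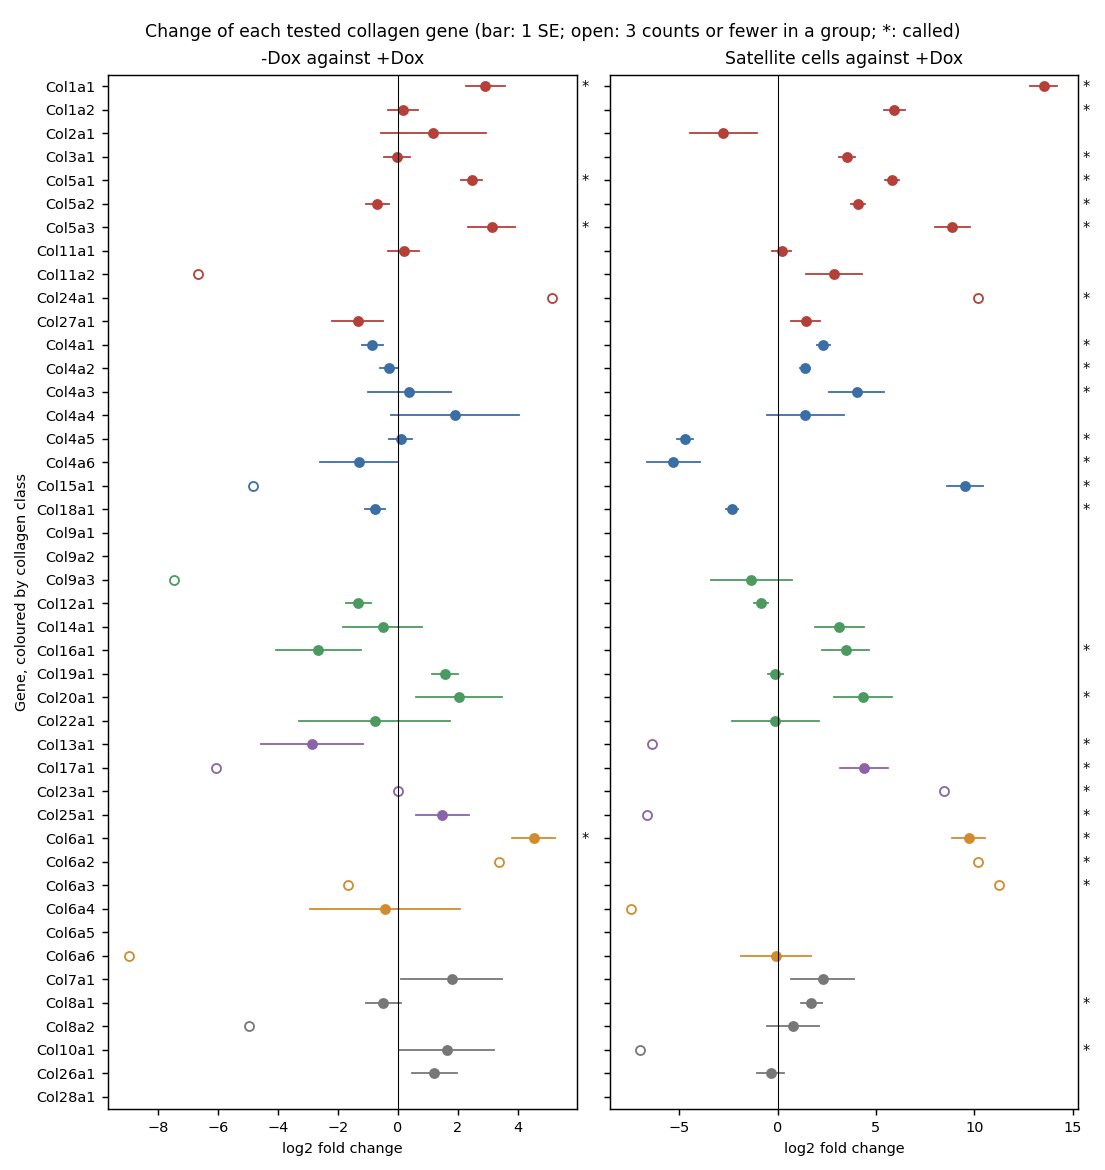
Log2 fold change of the 40 tested collagen genes in -Dox against +Dox (left) and satellite cells against +Dox (right), with bars of 1 SE; open points have 3 counts or fewer in a group, where the fitted value is no bound, and asterisks mark called genes. The left panel has 4 asterisks, all to the right of 0; the right panel has 25, of which 19 are to the right.

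Against -Dox, satellite cells had 19 members higher and 6 lower of 40 tested, beside 20.4% and 17.2% of all genes. Both comparisons use the same satellite libraries. The members lower in satellite cells were Col10a1, Col18a1, Col19a1, Col25a1, Col4a5 and Col4a6. Col19a1 was lower there (log2 fold change -1.68, edgeR adjusted p = 0.0136), a call lost without -Dox library 1 or 2 (adjusted p = 0.0569 and 0.0585), whereas Col1a1 was 10.60 higher on the log2 scale (adjusted p = 2.4e-05) and Col6a1 5.20 higher (adjusted p = 0.0011). Without -Dox library 2, 3 of the 6 remained.

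Markers of other cell types of muscle were also read in the satellite libraries, whose cells were isolated by the Pax7-ZsGreen reporter. Of the tested markers, all 8 endothelial and all 6 pericyte and smooth muscle markers were higher in satellite cells than in +Dox. So were 6 of 9 fibroblast, 5 of 6 blood and 5 of 5 Schwann cell markers, against 23.9% of all genes tested. Of the 8 satellite cell markers, 5 were higher and 2 lower, and of 5 tested cartilage markers 2 were higher and 1 lower. The satellite cell list summed to normalized counts of 221350 to 294253 in +Dox and 664168 to 1011518 in satellite cells. The summed normalized count of the endothelial list was 116 to 318 in +Dox, 69.8 to 192 in -Dox and 16225 to 25166 in satellite cells. That of the pericyte and smooth muscle list was 267 to 367, 443 to 581 and 12682 to 24553 in the same order. That of the fibroblast list was 29487 to 30916, 8333 to 12108 and 154235 to 319852, with Gsn as its largest gene; Pdgfra had 2 counts in 1 iPax7 library and none in the others, and normalized counts of 176 to 245 in satellite cells, and Clec3b was at 0 in every iPax7 library. That of the blood list was 395 to 535, 409 to 693 and 1826 to 6684, and that of the Schwann list 301 to 527, 184 to 213 and 7416 to 10587. For tendon, 3 of 4 markers were higher; its sum was 93.1 to 174, 186 to 196 and 3083 to 4727. In satellite libraries 1, 2 and 3 the sum of the whole fibroblast list was 319852, 208988 and 154235. Without Gsn, which +Dox cells also expressed (26789, 27982 and 20406 normalized counts), the sum was 33969, 69705 and 44034. The collagen share of these satellite libraries was 0.359%, 0.329% and 0.156%. The part of these cells in the collagen differences was not tested, and in bulk RNA fewer cells of a type and less RNA per cell cannot be told apart.

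Genes that act on collagen were read from 8 lists with 79 genes, of which 75 were tested. In -Dox against +Dox, 9 were higher (12% of those tested, against 4.63% of all genes) and 3 lower (4%, against 3.01%). Tmem38b, an endoplasmic reticulum cation channel needed for collagen secretion in bone, had 473, 578 and 806 normalized counts in +Dox and 14120 and 12176 in -Dox (log2 fold change 4.41 ± 0.38, edgeR adjusted p = 0.000176). P4ha1, the catalytic subunit of prolyl 4-hydroxylase, rose by 1.33 ± 0.22 on the log2 scale (adjusted p = 0.00602), and Sec23a, a coat protein of the vesicles that carry procollagen, by 1.13 ± 0.26 (adjusted p = 0.0282). Adamts14, a procollagen N-proteinase, rose by 2.37 ± 0.43. Of the fibril partners, Fn1 (fibronectin) rose by 2.17 ± 0.44, Dcn (decorin) by 4.16 ± 0.56 and Postn (periostin) by 6.34 ± 1.43. Postn had 0, 23.0 and 0 normalized counts in +Dox and 598 and 686 in -Dox. Ddr2, a collagen receptor, and Fap, a collagen-cleaving protease, were also higher. Ddr2 was near absent in both states, with at most 1.48 normalized counts in +Dox and 14.7 and 3.69 in -Dox. Fap had no count in +Dox and 14.7 and 85.85 normalized counts in -Dox.

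Among the genes that fell were 2 enhancers of procollagen C-terminal processing. Pcolce had 32106, 32550 and 30486 normalized counts in +Dox and 10537 and 13083 in -Dox (log2 fold change -1.43 ± 0.36, edgeR adjusted p = 0.0433), and Pcolce2 107, 294 and 249, then 15.6 and 5.54. Efemp2, which takes part in elastic fibre and collagen crosslinking, had 8142, 8138 and 8310, then 3448 and 3784. Without +Dox library 1 the count of 3 became 1, and without +Dox library 2, -Dox library 1 or -Dox library 2 it became 0.

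Between satellite cells and +Dox, 30 of the 75 tested pathway genes were higher in satellite cells (40%, against 23.9% of all genes) and 10 lower (13.3%, against 18.2%). Of the enzymes that modify proline or lysine, P4ha2 was higher by 2.87 ± 0.29 on the log2 scale, while P4ha3 (-3.93 ± 1.06) and P3h4 (-3.07 ± 0.45) were lower. Colgalt2, a collagen galactosyltransferase, had no count in +Dox and 7.90, 28.1 and 168 normalized counts in satellite cells. In folding and secretion, Tmem38b (2.13 ± 0.34) and Sparc (1.10 ± 0.26) were higher and Fkbp10 (-1.18 ± 0.35) lower.

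Of the procollagen proteinases, Bmp1 was higher in satellite cells by 2.79 ± 0.25 on the log2 scale, and Tll1 had no count in +Dox and 0, 176 and 55.4 normalized counts in satellite cells. The enhancer Pcolce was lower (-2.51 ± 0.33). The crosslinking enzymes Lox (3.03 ± 0.33), Loxl2 (1.41 ± 0.43) and Loxl1 (1.11 ± 0.39) were higher. Among the fibril partners, Lum (lumican), with no count in +Dox, had 2188, 2369 and 2479 normalized counts in satellite cells, which is at least 859-fold above the floor of 3 counts per library. Fmod (fibromodulin) had 19387, 13569 and 17099 against at most 4.55 in +Dox, Tnxb (tenascin X) 1726, 1197 and 3536 against at most 1.82, and Dcn rose by 8.62 ± 0.65.

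Of the collagen receptors, Ddr2 had 6561, 8186 and 12089 normalized counts in satellite cells against at most 1.48 in +Dox. Itga1, the integrin alpha 1 chain, had no count in +Dox and a satellite mean at least 373-fold above the same floor. Lair1, an inhibitory receptor of leukocytes, had no count in +Dox and 157, 8.04 and 56.7 in satellite cells. Adgrg1, which binds collagen III, rose by 4.82 ± 0.65. Of the proteases, Mmp2, a gelatinase, rose by 2.72 ± 0.29 and Ctsk (cathepsin K) by 5.13 ± 1.28. Fap had no count in +Dox and was at least 109-fold above the floor, and Mmp8 had 14.5, 169 and 0 against no count. Of the basement membrane partners, the laminin chains Lama4 (4.25 ± 0.95), Lamb2 (2.83 ± 0.36) and Lamc1 (1.89 ± 0.26) were higher, and Nid2, a linker of laminin and type IV collagen, was lower (-2.58 ± 0.41).

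Chromatin at the collagen promoters was compared with that of all genes. A gene counted as marked when a peak touched the 1000 bases on either side of an annotated start (GENCODE M1, mm9); 22053 of 24466 gene symbols could be placed, among them all 44 collagens. Lists differ in depth and in number of peaks, so each count stands beside that over all genes. H3K27me3, a mark of Polycomb repression, lay at 22 of 44 collagen promoters in +Dox (50%) and 21 in -Dox (47.7%), against 22.5% and 20.5% of all genes. H3K4me3, a mark of promoters, lay at 27 (61.4%) and 36 (81.8%), against 62.1% and 68.1%. H3K27Ac, a mark of active regions, lay at 20 (45.5%) and 12 (27.3%), against 49.4% and 46.5%. ATAC peaks lay at 32 in +Dox (72.7%, all genes 64.7%) and 30 in satellite cells (68.2%, all genes 60%).

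RNA levels differed with the promoter mark in +Dox. The 20 members with H3K27Ac at the promoter had a median level of 1.25 per kilobase of exon, and the 24 without had 0.0336. For H3K27me3 the order was the opposite: 0.0463 in the 22 with the mark and 0.375 in the 22 without. Col18a1, Col19a1, Col4a1, Col4a2, Col4a5, Col3a1, Col8a1, Col1a2 and Col5a1 had H3K4me3 and H3K27Ac and no H3K27me3 in both iPax7 states. Their mean levels in +Dox ran from 0.161 (Col5a1) and 0.548 (Col1a2) to 33.8 (Col19a1) per kilobase of exon. Of the 18 members with H3K27me3 in both states, 6 were higher in satellite cells than in +Dox (Col4a3, Col6a2, Col6a3, Col15a1, Col23a1 and Col24a1), 2 lower (Col13a1 and Col25a1), 8 were not called and 2 were not tested. Over all collagen genes tested, 47.5% were higher and 15% lower, and over all genes tested 23.9% and 18.2%.

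The 4 genes that rose in -Dox had different promoters. Col1a1 had H3K27me3 in +Dox and not in -Dox, and H3K4me3 in -Dox and not in +Dox. Col5a3 had H3K4me3 only in -Dox, where it also had H3K27me3. Col6a1 had H3K4me3 in both states and H3K27me3 in neither. Col5a1 had H3K4me3 and H3K27Ac in both. All 4 had an ATAC peak in both states and in satellite cells, although Col1a1 had almost no RNA in +Dox. Over all members, H3K4me3 was listed in -Dox alone at 10 and in +Dox alone at 1, against 6.27% and 0.363% of all genes. H3K27Ac was listed in +Dox alone at 8 and in -Dox alone at none, against 5.21% and 2.23%. Peaks were called on merged replicates, so no spread between replicates can be given.

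**Figure D5:**
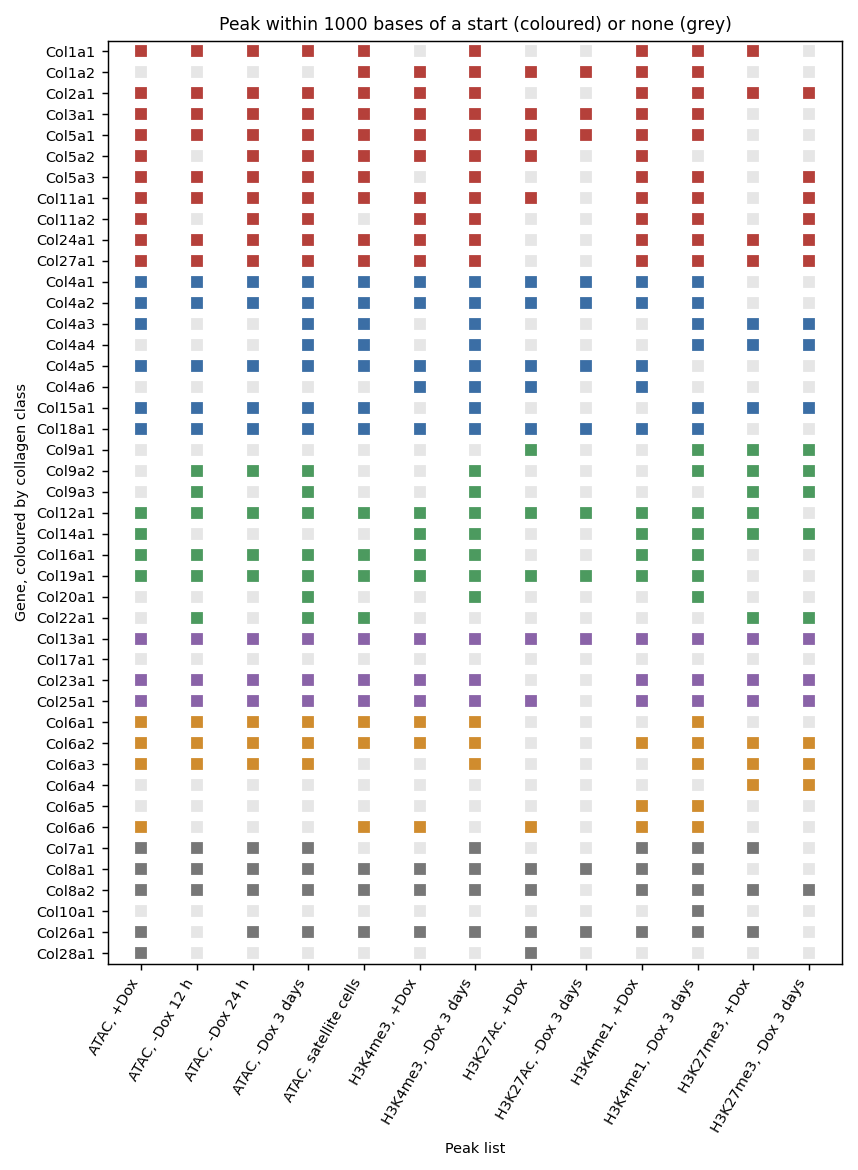
Presence of a peak within 1000 bases of a start of each collagen gene (rows, coloured by class) in 13 peak lists (columns); grey squares mark no peak. H3K27me3 squares are filled mostly in rows with few H3K27Ac squares, and ATAC squares are filled in 32 rows in +Dox.

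Promoter sequence was read for 3 of the 4 genes that rose in -Dox, to show the sequence in front of genes that moved together; Col1a1 was not in the promoter table. Each is the 250 bases before the start of the RefSeq gene (GRCm38.p6), in the direction of transcription, and capitals mark matches on either strand to the E-box CAGCTG of myogenic factors, to the CCAAT box, to the GC box GGGCGG and to the TATA box TATAAA.
Col5a1, chr2:27886175-27886424, plus strand: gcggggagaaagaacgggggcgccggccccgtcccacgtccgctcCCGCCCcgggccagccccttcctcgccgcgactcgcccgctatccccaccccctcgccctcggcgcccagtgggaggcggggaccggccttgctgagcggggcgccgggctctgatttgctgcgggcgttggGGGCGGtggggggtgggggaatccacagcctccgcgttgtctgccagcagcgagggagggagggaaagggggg
Col5a3, chr9:20815068-20815317, minus strand: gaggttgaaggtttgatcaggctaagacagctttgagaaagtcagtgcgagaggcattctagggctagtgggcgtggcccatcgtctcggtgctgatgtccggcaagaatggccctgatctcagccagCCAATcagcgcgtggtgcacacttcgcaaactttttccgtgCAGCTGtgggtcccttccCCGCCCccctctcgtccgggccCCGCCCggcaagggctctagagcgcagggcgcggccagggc
Col6a1, chr10:76726045-76726294, minus strand: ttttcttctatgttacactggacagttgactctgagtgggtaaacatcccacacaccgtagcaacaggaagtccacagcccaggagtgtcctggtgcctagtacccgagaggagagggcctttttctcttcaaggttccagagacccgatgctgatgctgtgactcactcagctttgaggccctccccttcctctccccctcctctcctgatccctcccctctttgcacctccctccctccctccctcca
Col5a3 held 1 E-box, 1 CCAAT and 2 GC boxes, Col5a1 held 2 GC boxes, and Col6a1 held none of the 4 motifs. Of 35 collagen promoters in the table, 21 held a GC box (60%, against 32.9% of 27025 promoters), 12 held CCAAT (34.3% against 34.5%), 6 held the E-box (17.1% against 12.8%) and 5 held TATAAA (14.3% against 13%). The GC content was 76.4% in Col5a1, 62.8% in Col5a3 and 56% in Col6a1, against a median of 52% over all promoters. A match is a run of letters and not a measured site.

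Pax7 sites were found near 12 of the 44 collagen genes. The list held 2455 sites; 21 of them lay inside or within 50 kb of a collagen gene. The share of collagen genes with such a site was 27.3%, and that of all placed genes 13.8%; collagen genes are longer, with a median of 114 kb against 15.8 kb. No collagen promoter carried a site within 1000 bases, where 1.53% of all genes did. Inside the gene body a site lay in 5 collagens, all in introns: Col6a6 and Col19a1 (2 each), Col9a1, Col12a1 and Col14a1. All 21 sites overlapped an ATAC peak in +Dox and 14 did after 3 days without Dox, beside 95.4% and 68% of all Pax7 sites. An H3K27Ac peak lay at 18 of 21 in +Dox and 7 of 21 in -Dox (all sites: 73.2% and 37.9%).

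Col19a1 and Col12a1, the FACIT genes with the highest levels, show both kinds of site. Their central 300 bases on mm9, plus strand, are given with the homeodomain half-site TAATT on either strand in capitals; that half-site was in 48.6% of the windows of this length over all Pax7 sites and in 9 of the 21 near collagen genes. The dimer, TAAT and ATTA with 2 bases between them, was in 1.02% of those windows; over whole sites it was in 2.04% of all Pax7 sites and in none of the 21.
Col19a1 intron, chr1:24518307-24518606: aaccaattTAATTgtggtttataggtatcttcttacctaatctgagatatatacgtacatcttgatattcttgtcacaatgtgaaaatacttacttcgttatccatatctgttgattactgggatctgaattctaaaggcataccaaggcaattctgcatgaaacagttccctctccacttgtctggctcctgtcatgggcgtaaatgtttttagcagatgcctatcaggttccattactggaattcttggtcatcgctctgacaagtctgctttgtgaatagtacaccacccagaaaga
Col19a1 upstream, chr1:24636997-24637296: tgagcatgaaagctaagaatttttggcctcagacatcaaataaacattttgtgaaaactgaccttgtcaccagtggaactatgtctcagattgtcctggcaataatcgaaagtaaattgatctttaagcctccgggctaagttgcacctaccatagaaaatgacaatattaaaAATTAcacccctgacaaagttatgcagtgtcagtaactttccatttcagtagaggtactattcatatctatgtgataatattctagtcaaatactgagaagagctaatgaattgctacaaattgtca
Col12a1 intron, chr9:79477104-79477403: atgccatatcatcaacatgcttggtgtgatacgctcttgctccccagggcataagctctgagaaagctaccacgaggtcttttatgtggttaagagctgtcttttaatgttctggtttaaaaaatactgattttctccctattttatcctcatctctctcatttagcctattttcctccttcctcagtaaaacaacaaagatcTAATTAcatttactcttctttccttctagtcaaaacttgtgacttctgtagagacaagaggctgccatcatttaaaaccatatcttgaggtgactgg
The intronic site of Col19a1 shown here lay 75.9 kb from the start, with ATAC and H3K27Ac peaks in both iPax7 states and an ATAC peak in satellite cells. The other intronic site, 74.8 kb from the start, had the same peaks and no half-site in its window. A further site, inside Col9a1 and 339 kb from the Col19a1 start, had no half-site in its window either. The upstream site lay 42.8 kb before the start. It and the Col12a1 site, 89.4 kb into the gene, had ATAC and H3K27Ac peaks in +Dox and neither in -Dox. The Col12a1 window holds 2 overlapping half-sites on opposite strands, and each Col19a1 window shown holds 1. Col1a2, whose RNA was 61.6-fold higher in the satellite mean than in the +Dox mean, had 3 sites downstream of the gene (56.7, 58.9 and 77.2 kb from its start), open in +Dox and not in satellite cells.

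The 28 genes not given one by one all had group means below 1000 normalized counts, with 958.8 as the highest. Of these, 12 reached a mean of 100 in some group and 16 did not. Col4a6, Col11a1 and Col26a1 were above 100 in every +Dox library. Col11a1 was even across states, with 276, 281 and 283 in +Dox, 273 and 367 in -Dox and 337, 430 and 212 in satellite cells (log2 fold change 0.19 ± 0.53 and 0.22 ± 0.48 against +Dox, edgeR adjusted p = 0.926 and 0.737). Col25a1, a neuronal and muscle transmembrane collagen, had 91.6, 68.1 and 143 in +Dox, 222 and 344 in -Dox, and 0, 1.34 and 1.32 in satellite cells. Col13a1, a transmembrane collagen of the neuromuscular junction, had 43.6, 47.4 and 51.9, then 2.76 and 10.2, then 0, 1.34 and 0. Col10a1 had 10.0 to 24.0 in +Dox and no count in satellite cells.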

How the data were processed

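RNA-seq files hold raw counts per gene symbol, deposited by the authors; their notes name Trimmomatic 0.32, TopHat2 2.0, Bowtie2 2.2 and HTSeq 0.6, with mm9 as the build. How strand and shared reads were counted is not given in the sources used here. Rows for unassigned reads (ambiguous, not unique and the like) were set aside. Peak lists were deposited as positions called by the authors: ATAC-seq files give a score and a fold ratio per peak, and histone and Pax7 files give positions only.

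Genes were filtered with filterByExpr, scaled by TMM and tested in edgeR 4.0.16 (R 4.3.3) with 1 mean per group over 8 libraries, in 3 comparisons. The SE is the log2 fold change over the square root of F. Normalized counts were divided by effective library size. DESeq2 1.42.0 was an alternative. Fold bounds use 3 counts per library. The scripts were tested on simulated data.

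Values are given for every library for each member that is called in -Dox against +Dox or has a mean of 1000 normalized counts in a group. Pathway genes named are, per list, the called genes with the largest log2 fold changes in size, up to 6 in -Dox against +Dox and up to 4 in satellite cells against +Dox. Members and lists were chosen with earlier results of these data known. Floors cover counting error only, while the SE and SD include the spread between libraries. Chi-square per degree of freedom between libraries of a group was at least 46.8, so none was a copy.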

Additional observations from a re-analysis of the deposited data

How the results depend on the processing

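The largest dependence was in -Dox against +Dox. Collagen genes lower in -Dox numbered 0 in the reported fit, 5 with DESeq2, 1 in a fit on the compared groups only and 3 with a replicate block. Those higher numbered 4, between 2 and 4 when 1 library was left out and 3 to 6 in the other settings. Pathway genes lower in -Dox numbered 3, then 8 with DESeq2, 5 in the fit on the compared groups and 10 with the block, and 0 to 4 with 1 library left out; those higher numbered 9, and 3 to 9 with 1 library left out. In satellite cells against -Dox, collagen genes lower numbered 3 to 6 and pathway genes lower 5 to 10 with 1 library left out. Over all genes, 687 were higher and 447 lower in -Dox than in +Dox. These counts became 1041 and 969 with DESeq2, 999 and 951 in the fit on the compared groups, and 1272 and 1377 with the block; with 1 library left out they ran from 363 to 779 and from 125 to 595. Satellite cells against -Dox gave 3031 and 2548, and 1571 and 1633 without -Dox library 1. The cause was not tested. Where 1 -Dox library was left, it was assumed to vary like the other groups. Deviations of same-numbered libraries from their group means correlated between -0.0398 and 0.0272 across genes. With 2 or 3 libraries per group the deviations within a group constrain each other. These values therefore cannot show whether the numbers pair the libraries. The block fits kept only libraries whose number occurs in both groups, so +Dox library 3 was left out of -Dox against +Dox. With the block Col19a1 was called (log2 fold change 1.24, edgeR adjusted p = 4.49e-05). This call and the block counts of that comparison rest on 2 libraries per state. The part of the left-out library in them was not tested. Counts of satellite cells against +Dox, the shares of collagen counts, the promoter peak counts and the counts of collagen genes near a Pax7 site stayed within 1.5 times or 1 SD under every setting run. A score threshold could not be set for histone lists, which carry no scores. Called values between states rest on 2 or 3 libraries per group, and counts under 3 per library carry little information.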
